A study of Homo sapiens with 6 samples.

Results

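Chromatin remodellers are multi-subunit machines that use ATP to slide, eject or exchange nucleosomes. Each is built around an ATPase of the SNF2 type, and paralogous subunits can take the same place in the complex. Expression of 41 genes of the SWI/SNF, CHD, ISWI, INO80 and related complexes was compared between drug-tolerant and parental melanoma cells. A gene entered where a probe set of the array was annotated with its symbol alone, and where several did, the brightest over all arrays stood for it. That gave 40 of the 41 genes, among 18417 genes measured. SMARCD2 was not analysed here because its probe set was shared with PTCRA.

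The cells were WM164, a melanoma line with mutated BRAF that came from a lymph node metastasis. IDTC, short for induced drug tolerant cells, stands for 3 arrays of WM164 cells kept for 16 days in 500 nM PLX4032, the mutant-BRAF inhibitor vemurafenib, and Parent for 3 arrays of WM164 cells given DMSO. The labels state no length of DMSO exposure, and both groups come from a single line in culture. RNA was measured on whole-transcript expression arrays, and all values are log2 expression after RMA, so a difference of 1 is 2-fold. The cultures were triplicates extracted apart; whether they were independent experiments is not stated, and the p-values therefore cover only the spread of these samples, which may be technical. The number of arrays limits the precision.

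Arrays of the same group correlated at r = 0.995 to 0.998 over all genes, and arrays of different groups at 0.953 to 0.957. Of 6 measured melanocyte markers 5 rose, and their mean level per array was 11.15 to 11.32 in IDTC and 10.01 to 10.05 in Parent cells. Markers of other cell types had array means from 4.59 to 6.05 in IDTC and from 4.49 to 6.22 in Parent cells, over lists of 5 keratinocyte, 5 fibroblast, 5 endothelial and 5 leukocyte genes. Of those 20 genes only LUM, a fibroblast proteoglycan, fell (by 0.89), and the B cell gene MS4A1, a dim gene at 3.62 to 4.36 on all arrays, rose (by 0.37); their part in the results below was not tested. The array IDTC 3 was the lowest of its group for 29 of the 40 remodeller genes (72.5%), against 41.6% of all genes. Among genes that rose, it was the lowest for 68.8% of 16 remodeller genes and for 62.6% of all 3996 such genes. IDTC 3 also had the narrowest interquartile range of its group (3.31, against 3.49 on IDTC 1 and 3.42 on IDTC 2). All genes included the dimmest 40%, whereas 39 of the 40 remodeller genes lay above that cut. The shares are therefore not read as particular to remodellers.

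Remodeller genes moved both ways and mostly by less than 2-fold. Of the 40 genes 16 rose and 11 fell in the drug-tolerant cells, and 13 were not called (limma, adjusted p under 0.05 over all genes tested). Over all genes 46.6% were called, 21.7% higher and 24.9% lower. Among genes left after the dimmest 40% had been removed, 69.2% of all genes and 71.8% of 39 remodeller genes were called, so the share of calls among remodellers was near that of other well-expressed genes. The groups did not overlap for 30 of the 40 genes, against 54.1% of all genes. The median log2 fold change was 0.01 for the remodellers and -0.01 for all genes, and the median absolute change was 0.43 and 0.21. For overlap and absolute change, all genes included the dimmest 40%, whereas 39 of the 40 remodeller genes lay above that cut. Neither measure was compared with well-expressed genes alone, so no larger response of remodellers is read from them. CHD6, ATRX and HELLS were the genes called at 2-fold or more, with CHD2 just under that size, which was reached by 9.21% of all genes. The count of called genes was 10 of 16 among the ATPases and 17 of 24 among the other subunits.

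**Figure D1:**
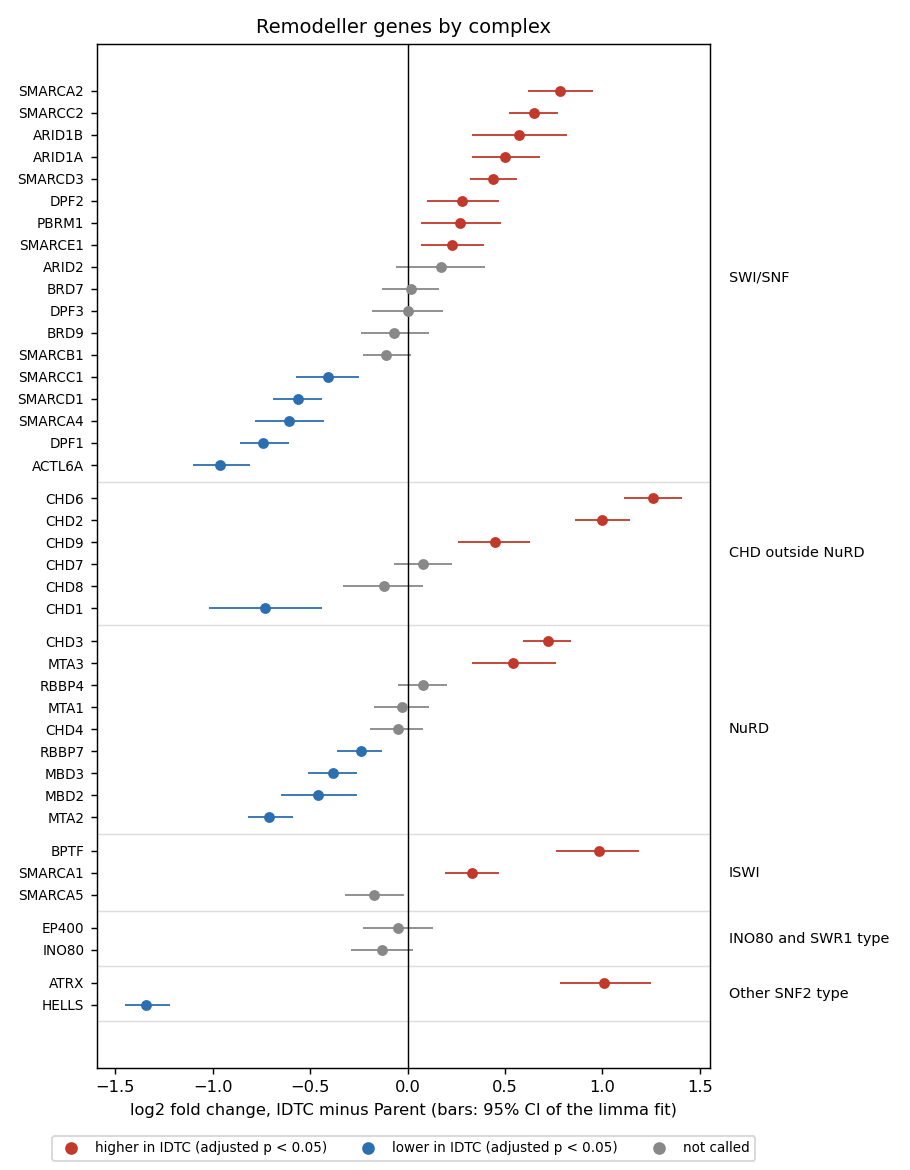
Log2 fold change (IDTC minus Parent) of the 40 measured remodeller genes, grouped by complex, with 95% confidence intervals of the limma fit on 3 arrays per group. Red points rose, blue points fell and grey points were not called; values run from -1.34 (HELLS) to 1.26 (CHD6).

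SWI/SNF complexes (BAF, PBAF and the non-canonical ncBAF) evict and slide nucleosomes at enhancers and promoters. Their ATPase is either SMARCA4 (BRG1) or SMARCA2 (BRM), and in melanocytes and melanoma SMARCA4 is known to be recruited by the lineage factors MITF and SOX10. Among the 18 measured SWI/SNF genes there were 8 that rose, 5 that fell and 5 without a call (median 0.09). The ATPases parted: SMARCA4 fell by 0.61 and SMARCA2 rose by 0.78. Without Parent 2 or without Parent 3, 5 of these genes rose in place of 8.

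SMARCA4 had 8.68, 8.74 and 8.49 in IDTC cells, against 9.29, 9.23 and 9.22 in Parent cells. The drug-tolerant arrays were all lower, IDTC 3 most of all (1.52-fold, SE 0.07 log2, limma adjusted p = 0.000338). SMARCA2 had 8.05, 7.99 and 7.86 in IDTC cells, against 7.21, 7.11 and 7.24 in Parent cells. Here each IDTC array lay above each Parent array (1.72-fold, SE 0.07, adjusted p = 6.6e-05). SMARCA2 minus SMARCA4, formed within each array, shifted by 1.39 ± 0.06 log2 (SE), which is a 2.62-fold change of their ratio in favour of SMARCA2. The exact permutation test gave p = 0.1 (2-sided), the smallest that 3 against 3 arrays allow, and 0.133 after adjustment over the 16 pairs of paralogues compared.

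The scaffold and accessory subunits showed the same kind of split. SMARCC1 and SMARCC2 (BAF155 and BAF170) form the dimer on which the complex is assembled. SMARCC2 had 9.64, 9.66 and 9.65 in IDTC cells, against 8.95, 9.03 and 9.04 in Parent cells, and rose 1.56-fold (adjusted p = 3.98e-05). SMARCC1 averaged 8.91 ± 0.09 in IDTC and 9.33 ± 0.06 in Parent cells (SD, n = 3 each) and fell 1.33-fold (limma adjusted p = 0.00163). The SMARCC1 to SMARCC2 ratio was 2.08-fold lower in IDTC cells, with no overlap between the groups.

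The SMARCD proteins (BAF60) link the complex to transcription factors. SMARCD1 had 9.71, 9.76 and 9.67 in IDTC cells, against 10.27, 10.26 and 10.29 in Parent cells, so all drug-tolerant arrays were lower (fell by 0.56 ± 0.05, adjusted p = 7.76e-05). SMARCD3, best known from heart and muscle, rose by 0.44 ± 0.05 (adjusted p = 0.000271). Their ratio, SMARCD3 over SMARCD1, was 2-fold higher in IDTC cells.

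ACTL6A, the actin-related subunit of BAF in progenitor cells and also a subunit of INO80 and TIP60 complexes, had the largest drop among SWI/SNF genes. It had 7.46, 7.41 and 7.40 in IDTC cells, against 8.47, 8.29 and 8.37 in Parent cells. No IDTC array came near a Parent array (1.94-fold lower, SE 0.06 log2, adjusted p = 1.38e-05). SMARCE1 (BAF57) rose by only 0.23 ± 0.07 (adjusted p = 0.0271), and this call was lost under 5 of 12 alternative settings. SMARCB1, the core subunit lost in rhabdoid tumours, was at 10.07 ± 0.03 in IDTC and 10.18 ± 0.04 in Parent cells (SD, n = 3 each). It was not called (limma adjusted p = 0.14), although its groups did not overlap. Under 1 of 12 alternative settings, limma with trend and robust eBayes, it was called lower (adjusted p = 0.0481).

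ARID1A and ARID1B, the alternative DNA-binding subunits that define BAF, moved in parallel. ARID1A had 9.90, 9.87 and 9.70 in IDTC cells, against 9.39, 9.23 and 9.34 in Parent cells. ARID1B had 9.22, 9.23 and 8.86 in IDTC cells, against 8.53, 8.57 and 8.49 in Parent cells. Both were higher on all drug-tolerant arrays (ARID1A by 0.50 ± 0.07, ARID1B by 0.57 ± 0.10; adjusted p = 0.000937 and 0.00282), and the smallest rise of each was on IDTC 3. The difference between the 2 changes was -0.07 ± 0.09 log2 with overlapping groups (exact permutation p = 0.5, 2-sided).

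The DPF proteins are BAF subunits that read acetylated and crotonylated histone tails. DPF1, the form of neuronal BAF, had 6.84, 6.89 and 6.95 in IDTC cells, against 7.65, 7.62 and 7.63 in Parent cells, and fell 1.67-fold (adjusted p = 2.44e-05). DPF2, the widely expressed form, averaged 10.20 ± 0.05 in IDTC and 9.91 ± 0.14 in Parent cells (SD, n = 3 each) and rose by 0.28 (limma adjusted p = 0.0217). The DPF1 to DPF2 ratio shifted by -1.02 ± 0.07 log2. The rise of DPF2 was no longer called without IDTC 3, without Parent 2 or without Parent 3. DPF3 was dim, at 5.75 to 5.90 in IDTC and 5.70 to 5.91 in Parent cells, and was not called. Of the subunits that define PBAF, PBRM1 (polybromo, a reader of acetylated histones) rose by 0.27 ± 0.09 (adjusted p = 0.035), a call lost under 6 of 12 alternatives. ARID2 (0.17) and the bromodomain proteins BRD7 of PBAF (0.02) and BRD9 of ncBAF (-0.07) were not called.

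**Figure D2:**
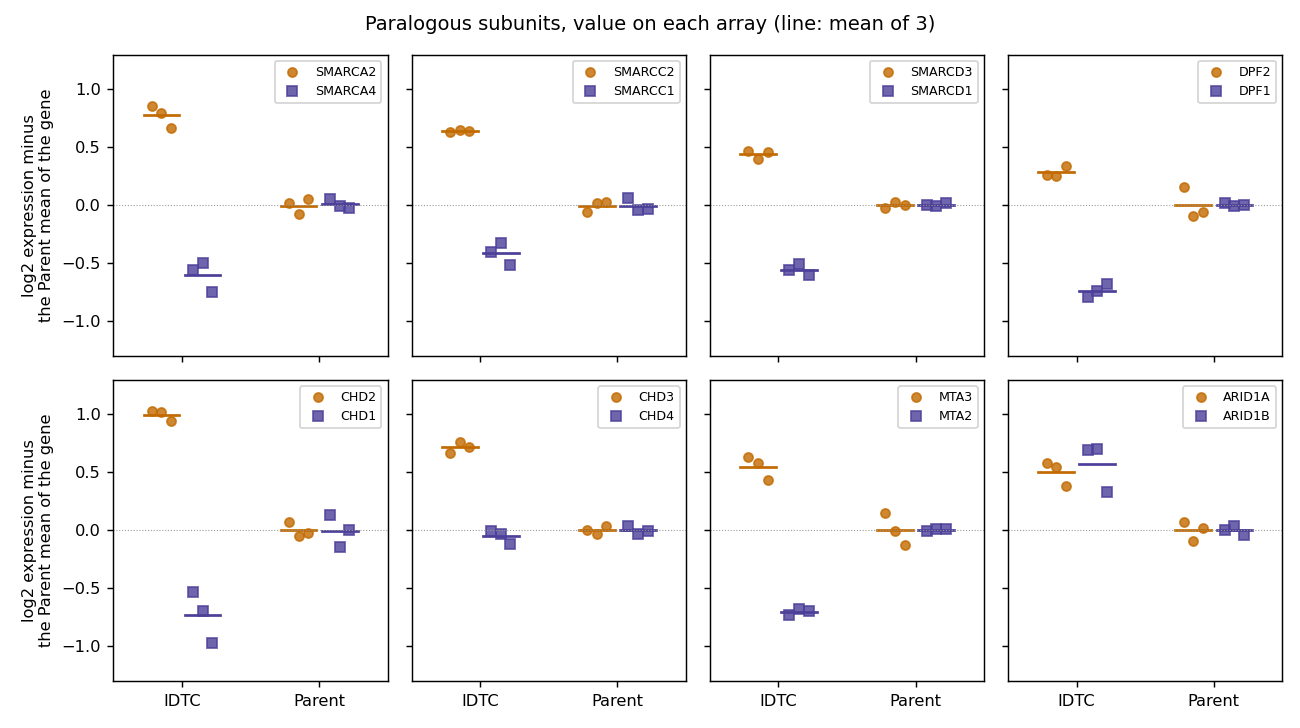
Log2 expression minus the Parent mean of each gene, on each of 3 IDTC and 3 Parent arrays, for 8 of the 16 pairs of paralogues. Lines are group means. The pairs shown include every 1 of the 16 that held a riser and a faller. In 6 of the pairs shown (SMARCA2 and SMARCA4, SMARCC2 and SMARCC1, SMARCD3 and SMARCD1, DPF2 and DPF1, CHD2 and CHD1, MTA3 and MTA2) the members moved in opposite directions, CHD3 rose while CHD4 was not called, and ARID1A and ARID1B rose together.

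NuRD joins a remodelling ATPase, CHD4 or CHD3, to histone deacetylases and methyl-CpG binding proteins, and is mainly known for repression. Its 9 measured members gave 2 that rose, 4 that fell and 3 without a call (median -0.05). CHD4 had 10.06, 10.04 and 9.95 in IDTC cells, against 10.11, 10.04 and 10.06 in Parent cells. The groups overlapped and the difference, -0.05, had a 95% interval from -0.19 to 0.08. CHD3 had 9.22, 9.31 and 9.27 in IDTC cells, against 8.55, 8.52 and 8.59 in Parent cells. All its drug-tolerant arrays were higher (1.64-fold, SE 0.05 log2, adjusted p = 2.62e-05), and the CHD3 to CHD4 ratio shifted 1.71-fold towards CHD3.

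The MTA proteins are the NuRD scaffolds that bind and activate the deacetylases. MTA2 had 9.62, 9.67 and 9.65 in IDTC cells, against 10.34, 10.36 and 10.36 in Parent cells. MTA3, first known from breast epithelium, had 7.94, 7.89 and 7.74 in IDTC cells, against 7.46, 7.30 and 7.18 in Parent cells. MTA2 was lower and MTA3 higher on every IDTC array (MTA2 by -0.71 ± 0.05 and MTA3 by 0.54 ± 0.09; adjusted p = 1.89e-05 and 0.0017), while MTA1 was not called at -0.03. The MTA3 to MTA2 ratio rose 2.38-fold with no overlap between the groups.

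Both genes of the methyl-CpG binding family fell. MBD2, which binds methylated DNA, had 8.50, 8.37 and 8.25 in IDTC cells, against 8.94, 8.78 and 8.77 in Parent cells, all lower in the drug-tolerant cells (fell by 0.46 ± 0.08, adjusted p = 0.00281). MBD3, whose human form binds methylated DNA poorly, fell by 0.38 ± 0.05 (adjusted p = 0.000694), and the ratio of MBD2 to MBD3 overlapped between the groups (difference -0.08 ± 0.11). The histone-binding WD40 proteins RBBP4 and RBBP7 also serve PRC2 and other complexes. RBBP7 fell by 0.24 ± 0.05 (adjusted p = 0.00415) and RBBP4 was not called at 0.08.

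Other genes of NuRD, not among the members described so far, were 1 higher, 4 lower and 3 not called of 8. CDK2AP1 (fell by 0.91), the deacetylase gene HDAC2 (fell by 0.70), GATAD2A (fell by 0.56) and HDAC1 were the lower genes, and the partner ZMYND8, which reads acetylated histones, rose by 0.65. Of 11 other SWI/SNF genes 1 rose (BICRAL of ncBAF, by 0.59) and 3 fell, namely the PBAF subunit gene PHF10 (by 0.79), BCL7B (by 0.51) and BCL7C (by 0.20, a call lost under 6 alternatives).

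The CHD proteins outside NuRD act mostly without a large fixed complex and carry paired chromodomains. There were 3 that rose, 1 that fell and 2 without a call among the 6 genes (median 0.26). CHD6 had 9.16, 9.18 and 9.11 in IDTC cells, against 7.98, 7.80 and 7.89 in Parent cells. It had the largest rise among the remodellers (2.39-fold, 1.26 ± 0.06 log2, adjusted p = 4.15e-06) and lay at the 97.8th percentile of fold changes over all genes.

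CHD1 and CHD2 are close relatives that travel with transcribing RNA polymerase II. CHD2 had 9.30, 9.29 and 9.21 in IDTC cells, against 8.34, 8.22 and 8.25 in Parent cells. CHD1, which reads H3K4 methylation, had 8.36, 8.19 and 7.92 in IDTC cells, against 9.02, 8.75 and 8.89 in Parent cells. CHD2 was higher and CHD1 lower on all drug-tolerant arrays (CHD2 by 1.00 ± 0.06, adjusted p = 8.12e-06, and CHD1 by -0.73 ± 0.12, adjusted p = 0.00184). The CHD1 to CHD2 ratio was 3.32-fold lower in IDTC cells, the largest shift among the 16 pairs.

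CHD9 had 9.28, 9.18 and 9.03 in IDTC cells, against 8.78, 8.63 and 8.74 in Parent cells, and rose by 0.45 ± 0.08 (adjusted p = 0.00245). CHD6 over CHD9 shifted by 0.81 ± 0.06 log2, with no overlap between the groups. CHD7, the gene of CHARGE syndrome and a regulator of the neural crest, had 8.58, 8.53 and 8.40 in IDTC cells, against 8.46, 8.40 and 8.41 in Parent cells. CHD8, known for binding beta-catenin and from autism genetics, had 8.41, 8.35 and 8.17 in IDTC cells, against 8.56, 8.34 and 8.39 in Parent cells. For both the groups overlapped and neither was called, with 95% intervals of -0.07 to 0.23 for CHD7 and -0.33 to 0.08 for CHD8; CHD7 was called after quantile normalization (0.15, adjusted p = 0.0474).

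ISWI complexes space nucleosomes in regular arrays and pair SMARCA5 (SNF2H) or SMARCA1 (SNF2L) with a large partner protein. SMARCA1 had 8.86, 8.90 and 8.77 in IDTC cells, against 8.57, 8.51 and 8.46 in Parent cells, and rose by 0.33 ± 0.06 (adjusted p = 0.00283). SMARCA5 had 9.29, 9.21 and 9.19 in IDTC cells, against 9.49, 9.38 and 9.32 in Parent cells. Its arrays did not overlap, but the difference (-0.17 ± 0.06, adjusted p = 0.065) was not called; it was called in 2 of 12 alternatives. SMARCA1 over SMARCA5 shifted by 0.50 ± 0.04 log2.

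BPTF is the large subunit of NURF, in which SMARCA1 is the ATPase, and reads H3K4 trimethylation. It had 10.04, 9.95 and 9.81 in IDTC cells, against 9.12, 8.87 and 8.90 in Parent cells. Every drug-tolerant array was well above the Parent arrays (1.97-fold, SE 0.09 log2, adjusted p = 7.95e-05). Of 8 partner genes of other ISWI complexes 2 rose and 4 fell (median -0.20). BAZ2B rose by 0.74, whereas BAZ1A of ACF and CHRAC fell by 0.68 and the small histone-fold subunits of CHRAC, POLE3 and CHRAC1, fell by 1.02 and 0.47. POLE3 is also a subunit of DNA polymerase epsilon.

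INO80 and the SWR1-type complexes (SRCAP and EP400/TIP60) exchange the histone variant H2A.Z. INO80 had 8.35, 8.44 and 8.24 in IDTC cells, against 8.51, 8.42 and 8.47 in Parent cells. EP400 had 8.28, 8.39 and 8.19 in IDTC cells, against 8.44, 8.24 and 8.34 in Parent cells. Neither ATPase gene was called and the groups overlapped for both, with differences of -0.13 (95% interval -0.29 to 0.03) and -0.05 (-0.23 to 0.13). SRCAP, the third ATPase gene of this class, was not called either (-0.01).

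Other subunits of these complexes were called in both directions. Of 28 measured genes 5 rose, 11 fell and 12 were not called. RUVBL1 and RUVBL2, the AAA+ ATPases shared by INO80, SRCAP and TIP60, fell by 1.53 ± 0.07 and 0.94 ± 0.06 (adjusted p = 2.39e-06 and 8.12e-06). UCHL5, a deubiquitinase of INO80 and the proteasome, fell by 1.78 ± 0.13 (adjusted p = 2.05e-05). MBTD1 of the TIP60 complex rose by 1.27 ± 0.08 (adjusted p = 1.53e-05).

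ATRX works with DAXX to place histone H3.3 in heterochromatin and at telomeres. ATRX had 8.31, 8.22 and 7.97 in IDTC cells, against 7.26, 7.13 and 7.06 in Parent cells, all higher in the drug-tolerant cells (2.02-fold, SE 0.10 log2, adjusted p = 0.000106). Its second probe set gave nearly the same change (1.00 ± 0.17). DAXX fell by 0.35 ± 0.05 (adjusted p = 0.000863), and its 3 probe sets lay between -0.35 and -0.33.

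HELLS (LSH), which maintains DNA methylation and is highly expressed in dividing cells, had the largest change of all the remodellers. It had 6.10, 6.07 and 6.08 in IDTC cells, against 7.44, 7.40 and 7.40 in Parent cells. The drug-tolerant arrays lay within 0.03 of each other and far below every Parent array (2.53-fold, -1.34 ± 0.05 log2, adjusted p = 1.18e-06). CDCA7, the zinc-finger protein that activates HELLS, fell by 1.92 ± 0.07 (adjusted p = 1.09e-06), while ZBTB24, which like both of them is mutated in ICF syndrome, rose by 0.32 ± 0.06 (adjusted p = 0.00337). RAD54L, a SNF2-type motor of recombination, fell by 1.38 ± 0.10 (adjusted p = 2.19e-05). Of 13 measured other SNF2-type genes and partners 5 rose and 7 fell, among them SHPRH (0.68) and the termination factor TTF2 (-0.66).

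These drops stood beside a fall of DNA replication genes. All 20 genes of a replication list fell (median -1.43), with array means of 7.96 to 8.08 in IDTC and 9.62 to 9.66 in Parent cells. CDC6 (-3.55), UHRF1 (-2.52, though its dimmer probe set was not called at -0.20) and GINS2 (-2.23) moved most. Whether the change in HELLS follows the share of dividing cells was not tested, and fewer cells expressing a gene and less RNA per cell cannot be told apart in bulk samples.

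E2F factors drive genes of S phase, and HELLS is a known E2F target. The letters TTTCCCGC and TTTGGCGC were searched on both strands in the 250 bases before each start of the RefSeq promoter windows (GRCh38.p14), in which 32 of the 40 remodeller genes had an entry. They occurred in 1.93% of 35116 windows. By gene, counted where any of its windows held them, they occurred in 3.24% of 14239 genes on the array. The share was 4.70% of genes called lower, 3.23% of genes called higher and 2.49% of genes not called. These shares were not compared among well-expressed genes alone. Of 18 replication genes, 9 held the letters. Among remodellers HELLS and BRD7 held them (6.25% of 32). Of 58 other genes of the complexes with an entry, 2 held them, namely CDCA7 and HLTF, which was not called (-0.17). The sequences of HELLS (chr10:94545538-94545787, plus strand), its partner CDCA7 (chr2:173354622-173354871, plus strand) and BRD7 (chr16:50368989-50369238, minus strand) are given to set these letters, in capitals, beside the different values of the 3 genes.
HELLS: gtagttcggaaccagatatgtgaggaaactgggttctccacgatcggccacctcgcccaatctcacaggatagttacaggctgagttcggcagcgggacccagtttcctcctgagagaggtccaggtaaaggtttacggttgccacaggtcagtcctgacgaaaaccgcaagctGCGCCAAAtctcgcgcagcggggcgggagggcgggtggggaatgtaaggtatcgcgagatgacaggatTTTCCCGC
CDCA7: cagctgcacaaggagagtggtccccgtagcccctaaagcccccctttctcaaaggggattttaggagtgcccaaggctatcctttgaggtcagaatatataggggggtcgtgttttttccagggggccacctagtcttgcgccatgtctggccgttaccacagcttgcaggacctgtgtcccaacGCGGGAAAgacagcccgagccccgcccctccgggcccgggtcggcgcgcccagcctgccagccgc
BRD7: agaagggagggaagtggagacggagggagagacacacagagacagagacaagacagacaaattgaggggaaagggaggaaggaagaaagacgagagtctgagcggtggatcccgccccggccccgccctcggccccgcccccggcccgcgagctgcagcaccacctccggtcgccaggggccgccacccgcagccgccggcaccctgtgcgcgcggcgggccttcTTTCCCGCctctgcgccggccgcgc
HELLS has the letters at 2 places, beginning 76 and 8 bases before the start, CDCA7 at 1 place 65 bases before it and BRD7 at 1 place 25 bases before it. HELLS and CDCA7 fell, and BRD7, with the same letters near its start, had 7.94, 7.82 and 7.81 in IDTC cells, against 7.89, 7.81 and 7.81 in Parent cells. A match describes letters only and shows no binding.

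ETS factors are nuclear targets of the MAPK pathway that PLX4032 blocks. Their core CCGGAAG, on either strand, was found in the promoter windows of 5 of the 32 remodeller genes with an entry (SMARCA2, MTA2, CHD4, EP400 and BRD9), a share of 15.6% against 14.3% of all genes on the array with an entry. Of these SMARCA2 rose, MTA2 fell and the other 3 were not called. Over all genes with an entry, the core was in 20.5% of those called lower, 15.7% of those called higher and 10.5% not called. Dim genes were called less often (46.6% of all genes were called, and 69.2% without the dimmest 40%). The shares by call were not compared among well-expressed genes alone, so no link of the core to the direction of change is read from them. Like the E2F letters, the ETS core was most frequent among genes called lower. So were the CRE letters TGACGTCA (3.76% lower, 2.86% higher, 2.34% not called). The AP-1 letters TGAGTCA were not (4.19%, 4.59% and 4.77% in the same order). CCAAT was in 41.8%, 42.8% and 38.5%, and the E-box CACGTG in 11.0%, 11.0% and 8.68%. The E-box CACGTG was present in 3 of the 32 (CHD9, PBRM1 and RBBP4) and in 9.80% of all such genes.

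**Figure D3:**
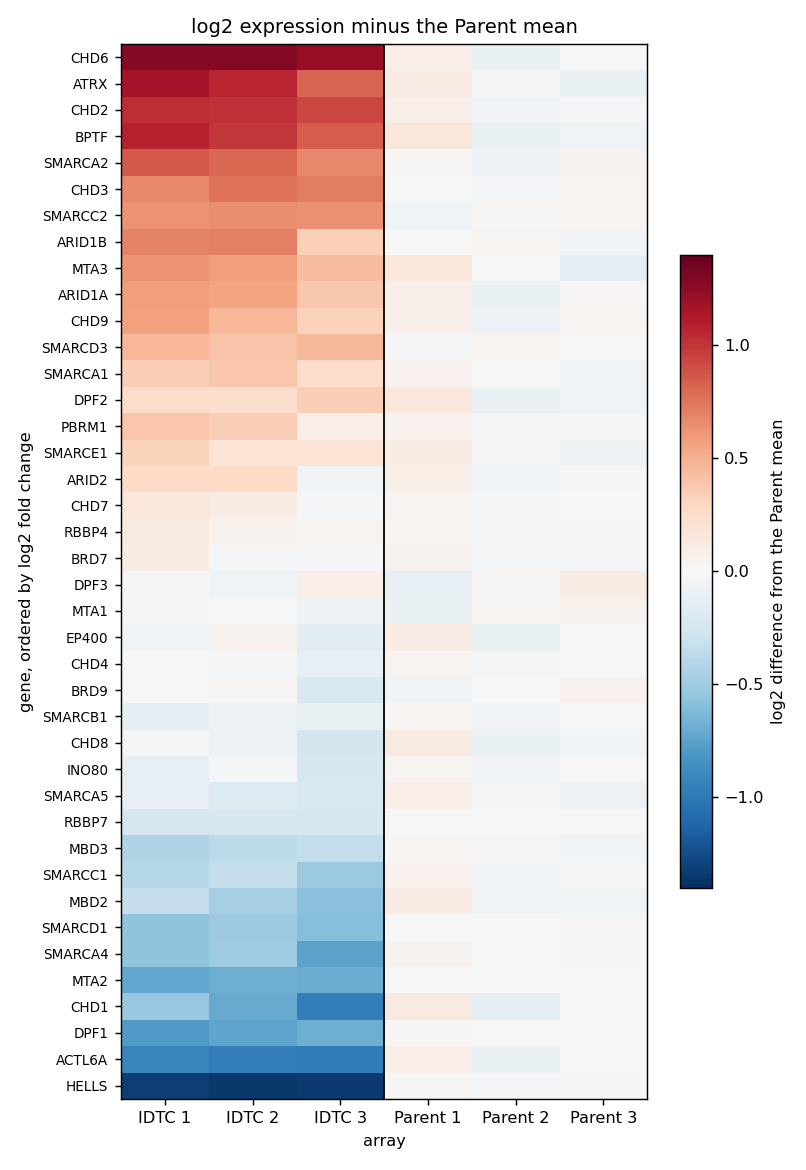
Log2 expression minus the Parent mean for the 40 remodeller genes (down the page, by fold change) on the 3 IDTC and 3 Parent arrays (across). At both ends, from CHD6 (1.26) to HELLS (-1.34), the 3 IDTC arrays share the direction of change but not always its size, and IDTC 3 is the lowest IDTC array for 29 genes.

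**Figure D4:**
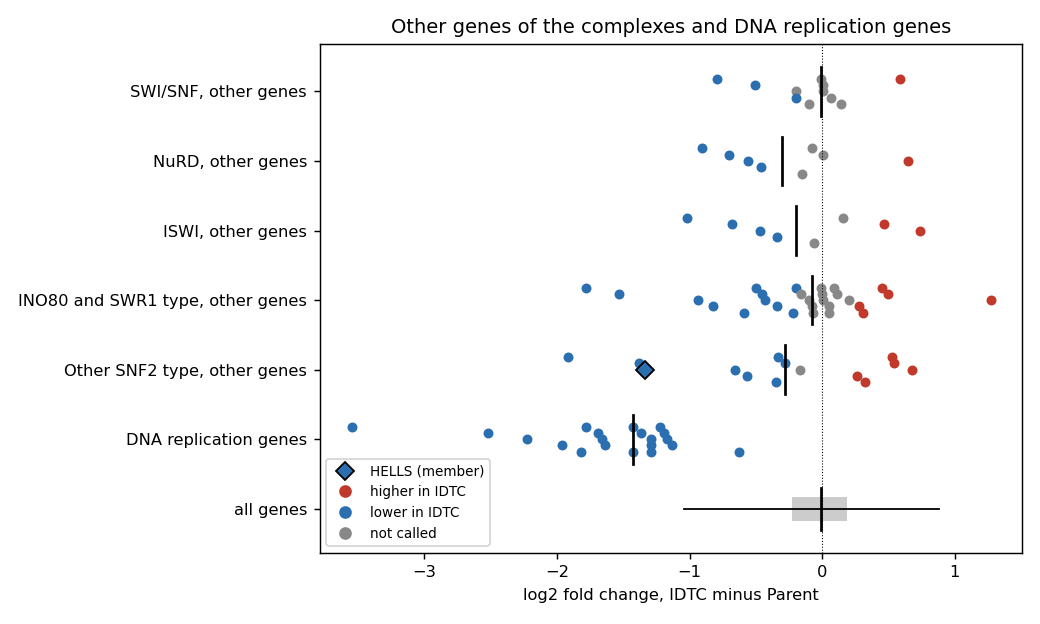
Log2 fold change (IDTC minus Parent) of genes of the same complexes that are not among the 41, and of 20 DNA replication genes; each point is a gene, black lines are medians, the diamond is HELLS, and the bottom row gives the 5th to 95th percentile (-1.04 to 0.88) and the middle 50% (-0.23 to 0.19) of all genes. INO80 and SWR1-type genes spread from -1.78 (UCHL5) to 1.27 (MBTD1), and all replication genes lie below 0.

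Across the 16 pairs of paralogues 12 had a ratio that did not overlap between the groups, and 6 held a riser and a faller. Over every possible pair of genes the ratio did not overlap for 63.3%, and for 77.6% without the dimmest 40% of genes, so the count of 12 was near that of other well-expressed genes. A riser and a faller were joined in 10.8% of all pairs and in 20.8% without the dimmest 40%. The paralogue pairs were listed with earlier results of these data known, so nothing particular to them is read from the count of 6. Each of the 12 gave the smallest exact permutation p this design allows (0.1, 2-sided; adjusted 0.133), so none could pass a threshold of 0.05. The 4 pairs with overlapping ratios were ARID1A and ARID1B, DPF3 and DPF2, BRD7 and BRD9, and MBD2 and MBD3. Shifts not given so far were 0.68 ± 0.04 log2 for MTA1 over MTA2, 0.32 ± 0.03 for RBBP4 over RBBP7 and 0.20 ± 0.05 for CHD7 over CHD8. Whether probes of a paralogue bind its relative was not tested.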

How the data were processed

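RNA of 3 IDTC and 3 Parent samples was measured on 1-colour arrays. The deposited values are log2 expression per probe set, normalized by the authors. Affymetrix Expression Console, RMA and Partek 6.6 are named, without roles, per the submitters' processing notes. The genome build was not given in the sources used here. No detection call was used, so changes of dim genes may be understated.

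Of 33297 probe sets, 19460 had 1 gene symbol in the platform annotation (18417 genes), 1754 several and 12083 none listed. Groups came from the sample titles. Each gene was fitted on all 6 arrays by limma (version 3.58.1, under R 4.3.3; linear model and eBayes, 2-sided, without covariates or filter), with Benjamini-Hochberg adjustment over all genes, called under 0.05. Errors after ± are standard errors of a log2 fold change unless SD is written. Paralogue ratios were tested by exact permutation of the 6 arrays. The members, lists and pairs were chosen with earlier results of these data known. Values on every array are given for all ATPase genes and the 10 other called members with the largest change. Up to 4 called genes are named per list of other complex genes. HDAC1, DAXX, ZBTB24, SRCAP, HLTF and the BRD7 arrays were chosen after their values were seen. On simulated data with 18417 genes 62% of 50 shifts of 0.5 log2, 90% of 50 shifts of 1 and all 50 shifts of 2 were recovered, with 14 false calls. Few genes were shifted there and noise was independent between genes, whereas 46.6% of genes were called in the real data. The simulated rates of recovery and false calls therefore do not carry over to the real comparison. Alternatives were 2 scalings, a filter, averaged probe sets, another eBayes setting, a replicate block and leaving out each array.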

Additional observations from a re-analysis of the deposited data

How the results depend on the processing

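Of the 27 calls among remodeller genes, 24 were kept under all 12 alternatives; the exceptions were SMARCE1, PBRM1 and DPF2. No member reversed. The remodellers called higher numbered 14 after re-centring the arrays and 19 after quantile normalization, which added ARID2, CHD7 and RBBP4, and those called lower 11 under both. Without the dimmest 40% of genes 12 remodellers were called lower, and 13 with trend and robust eBayes, which added SMARCA5 and SMARCB1. The lower ISWI count was 1 (SMARCA5) without the dimmest 40% of genes and 1 with trend and robust eBayes, against 0 as reported. Leaving out each array gave 13 to 16 remodellers higher and 11 lower, and 5 to 8 SWI/SNF genes higher; the count of 5 came without Parent 2 and without Parent 3, which removed PBRM1, SMARCE1 and DPF2. PBRM1 was also lost without IDTC 1, IDTC 2 or Parent 1, and SMARCE1 without IDTC 1 or IDTC 2; both were lost after re-centring. The cause of these shifts was not tested, and the part of the smaller number of arrays in them was not tested either. Deviations of equally numbered arrays correlated at 0.31, -0.19 and 0.26, and those of unequally numbered arrays at -0.47 to 0.37. Taken within groups of 3 arrays, these values cannot decide whether the numbers pair the samples. With the replicate number as a block 16 remodellers were higher and 11 lower, with 4148 and 4707 over all genes. Signal over background is unknown, so for dim genes such as DPF3 a missing call does not bound the change well.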
